A study of Mus musculus and Homo sapiens with 20 samples.

Results

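The Hoxb cluster comprises 10 homeobox transcription factor genes, Hoxb1, Hoxb2, Hoxb3, Hoxb4, Hoxb5, Hoxb6, Hoxb7, Hoxb8, Hoxb9 and Hoxb13. They were taken by GENCODE symbol and were 10 of 21938 protein-coding genes in mouse and 10 of 20033 in human. All 10 mouse genes lie on the + strand of chromosome 11 in mm10, from Hoxb13 (start 96194316) to Hoxb1 (end 96368256). The genes from Hoxb9 to Hoxb1 fill 96.8 kb (96271457 to 96368256), called the block here. A stretch of 74.0 kb (96197448 to 96271456), called the spacer, separates Hoxb9 from Hoxb13. Positions along the cluster are given in kb from the 5′ end of Hoxb1 towards Hoxb13. On this scale Hoxb3 lies at 17.8 to 42.4 kb, Hoxb4 at 44.1 to 47.5 kb, the start of Hoxb9 at 94.3 kb and Hoxb13 at 168.3 to 171.4 kb.

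Hox genes give positions along the body axis their identity, and their order on the chromosome follows the order in which they are switched on from head to tail. The genes at the Hoxb1 end are called anterior here and those at the Hoxb9 and Hoxb13 end posterior. Hox clusters are textbook targets of Polycomb repression. The enzyme complex PRC2 writes H3K27me3, a methyl mark on histone H3, and PRC1 writes H2AK119ub, a ubiquitin mark on histone H2A. Genes that carry both marks over long stretches are as a rule silent, and blood stem and progenitor cells are known to use some Hox genes, Hoxb4 among them.

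The data were CUT&Tag peak lists, in which an antibody directs a transposase to cut DNA around a mark. The 20 libraries formed 10 groups of 2. Mouse embryonic stem (mES) cells, wild type (WT) for Tet2 or knockout (KO), grew with LIF, CHIR99021 and PD0325901 after passaging to remove feeder cells, and haematopoietic stem and progenitor cells (HSPCs) of Tet2 WT or KO mice, aged 6 to 8 weeks, were bone marrow cells selected on magnets as lineage-negative and c-Kit-positive. The labels also describe suspension culture of HSPCs with cytokines. Each of these had libraries for H2AK119ub and for H3K27me3. K562, a human leukaemia line, was nucleofected with control siRNA (siControl) or siRNA against MBD6 (siMBD6), and had libraries for H2AK119ub alone. TET2 oxidises methylated cytosine, and MBD6 belongs to the MBD protein family and is linked to removal of H2AK119ub. The design addresses how the marks are placed in cells that lack Tet2 or have less MBD6, and it also lets cell types and marks be compared.

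Each library listed 85121 to 167378 peaks covering 132.1 to 259.9 Mb, as positions only, so read depth was unknown. A peak list cannot check the loss of Tet2 or MBD6. A gene or promoter without a peak is not shown to lack the mark, and in bulk cells the share of cells that carry a mark cannot be told apart from its level per cell. The labels do not say whether the 2 libraries of a group came from separate cultures or animals, and the study's methods speak of biological replicates without saying what was separate. The p-values thus measure the spread between libraries, which may be technical in part. As a check of cell type, the promoters of the pluripotency genes Pou5f1, Nanog and Tdgf1 had 0% H3K27me3 coverage in 4 of 4 mES libraries and 100% in 4 of 4 HSPC libraries. Of the whole list of 6 mES markers, H3K27me3 touched 1 to 2 promoters in mES cells and 5 in HSPCs. Of 8 HSPC markers it touched 6 to 7 in mES libraries but 5 to 6 in HSPC libraries, so this list hardly separated the cell types. The promoter of Mpo, a myeloid enzyme, had 0% in 4 of 4 HSPC libraries and 67.6% to 73.7% in mES cells. Markers did not all separate: the promoter of the blood regulator Gata2 was 100% covered in 16 of 16 mouse libraries, and that of Kit had 38.3% to 66.3% H3K27me3 coverage in HSPCs. In K562 cells the promoters of HBG1 and HBG2 had no peak in 4 of 4 libraries, and those of KLF1, TAL1 and GATA1 had H2AK119ub peaks in 4 of 4.

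Coverage in HSPCs broke at Mir10a, a microRNA gene at 48.5 kb between Hoxb4 and Hoxb5. A further microRNA gene, Mir196a-1, lies at 100.5 kb in the spacer. Both make microRNAs known to target Hox transcripts. Their mature RNAs are shown because the marks covered these 2 genes differently. The seed, bases 2 to 8, is in capitals (RefSeq, GRCm38.p6, + strand of chromosome 11).
miR-10a-5p: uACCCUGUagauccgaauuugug
miR-10a-3p: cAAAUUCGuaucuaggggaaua
miR-196a-5p: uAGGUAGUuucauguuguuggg
miR-196a-1-3p: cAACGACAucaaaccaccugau
No 2 of the 4 shared a seed. miR-10a-5p comes from chr11:96317186-96317208 and miR-196a-5p from chr11:96265187-96265208.

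In HSPCs, H3K27me3 coverage on the posterior side of Mir10a stopped just before it in all 4 libraries. In WT replicate 1 and KO replicate 2 this edge was the end of the long posterior peak. In WT replicate 2 and KO replicate 1 that peak ended at 96309405 and 96309623, and separate coverage beyond it reached the edge. In the 4 libraries that edge fell inside 275 bases, chr11:96316278-96316552 (mm10, + strand), which overlap no annotated exon. The stretch is printed with its CG dinucleotides in capitals, because it holds the posterior edge of the gap at Mir10a in all 4 libraries. It contains 3 of them, at 53.8% GC. H3K27me3 resumed after 1060 to 1504 uncovered bases, and the joined domain described below continued into Hoxb4.
HSPC H3K27me3 edge: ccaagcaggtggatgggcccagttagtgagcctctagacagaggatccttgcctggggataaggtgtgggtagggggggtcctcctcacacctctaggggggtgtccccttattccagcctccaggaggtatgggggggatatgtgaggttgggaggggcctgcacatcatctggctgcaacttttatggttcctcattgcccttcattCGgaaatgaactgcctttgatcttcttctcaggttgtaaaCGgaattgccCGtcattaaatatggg

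In mES cells the block was close to fully covered by both marks. H3K27me3 covered 100% and 98.9% of the block in WT replicates 1 and 2, and 98.9% and 96.4% in KO replicates 1 and 2. Pairs of values are given in this order throughout. H2AK119ub covered 90.5% and 91.0% in WT and 93.6% and 95.3% in KO. H3K27me3 took the form of few and very long peaks. The longest in the block measured 115.8 and 87.3 kb in WT and 91.4 and 75.0 kb in KO, and ranked 1, 3, 2 and 1 by width among all peaks of their lists. The longest H2AK119ub peaks were 24.8 and 33.7 kb in WT and 48.5 and 48.4 kb in KO. The longest run of the block without a peak was 4.80 and 2.95 kb for H2AK119ub in WT, and 1.70 and 1.75 kb in KO.

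**Figure D1:**
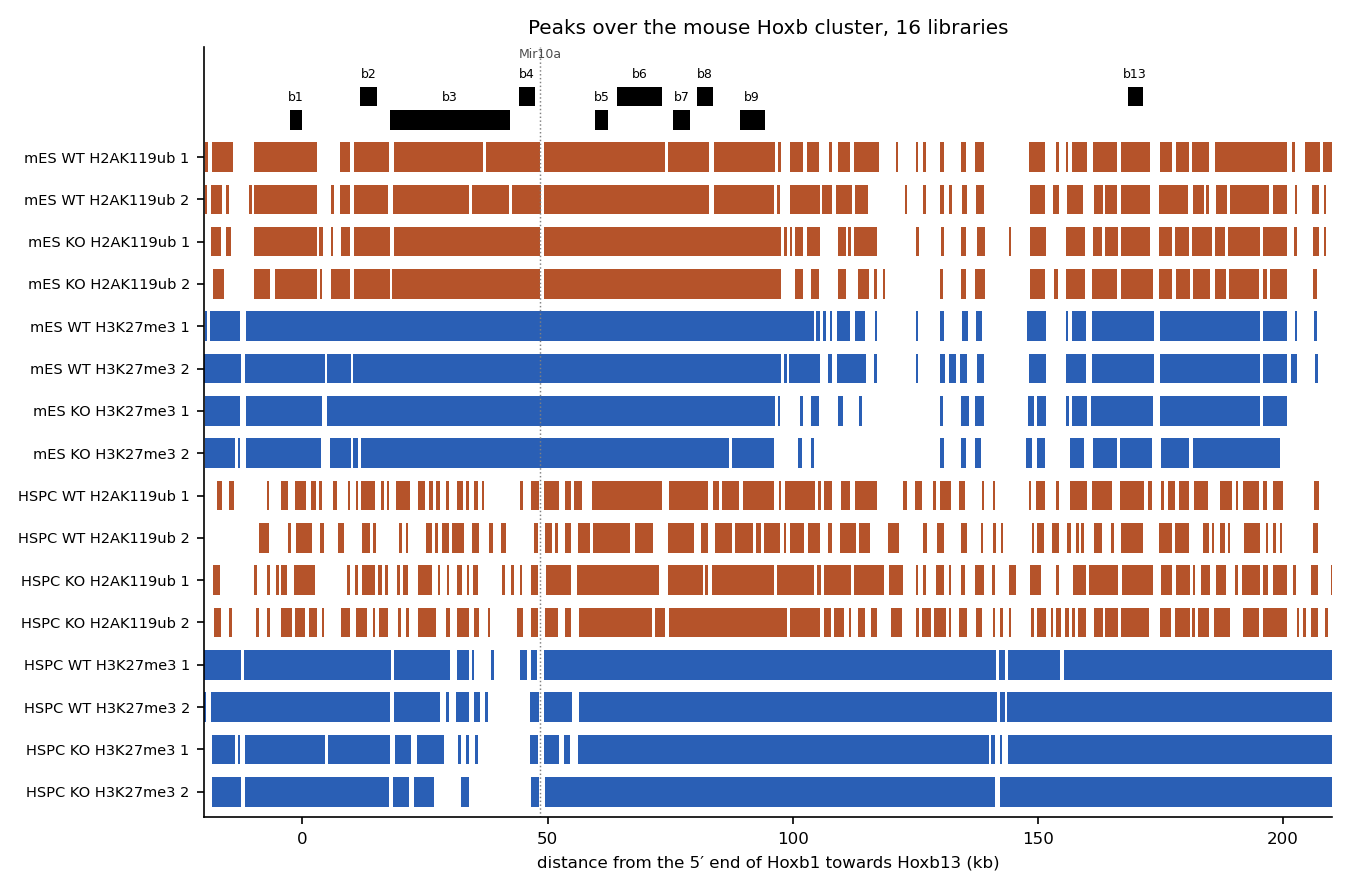
Stretches covered by peaks (orange, H2AK119ub; blue, H3K27me3) in each of the 16 mouse libraries, against the distance in kb from the 5′ end of Hoxb1 towards Hoxb13; black boxes are the genes and the dotted line is Mir10a. The mES block is close to solid. A gap over the start of Mir10a is present in all 8 HSPC libraries and in the mES H2AK119ub libraries other than WT replicate 2. The 4 HSPC H3K27me3 libraries lack peaks from 44.4 kb down to 39.0 kb.

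In HSPCs the same block was covered less, and in pieces. H2AK119ub covered 60.8% and 52.8% of it in WT and 62.6% and 65.6% in KO, split into 22 to 28 peaks per library against 6 to 9 in mES cells. H3K27me3 covered 85.7% and 82.7% in WT and 76.8% and 78.1% in KO. Every HSPC library was below every mES library of the same mark. Genome-wide, H2AK119ub peaks covered 138.8 to 177.0 Mb in HSPC libraries and 235.1 to 259.9 Mb in mES libraries. For H3K27me3 the ranges overlapped, at 164.6 to 200.9 Mb and 149.4 to 232.5 Mb. Lists cut to equal numbers of peaks are treated below, and the part of covered length in the block values was not tested. Over both marks and genotypes the mean was 70.6% in HSPCs and 95.6% in mES cells, a difference of -24.9 percentage points (two-sided exact permutation test within strata, p = 0.00154, the smallest this design can give; Benjamini-Hochberg adjusted p = 0.0154 over 20 tests). The difference was -32.1 points for H2AK119ub and -17.7 points for H3K27me3 taken alone, each at the smallest p of an exact test over 36 arrangements (p = 0.0556, adjusted p = 0.0926). With the replicate number as a block the pooled difference of -24.9 points no longer passed (exact test, adjusted p = 0.0781). Its p was the smallest that the fewer arrangements of that test allow, so this does not show a weaker difference.

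H2AK119ub covered less of the block than H3K27me3 did. The means over both cell types and genotypes were 76.5% and 89.7%, a difference of -13.2 points (exact permutation test, p = 0.00154, adjusted p = 0.0154; with the replicate block, adjusted p = 0.0781). As between cell types, the p under the replicate block was the smallest that test allows. In mES cells the marks differed by -5.95 points and in HSPCs by -20.4 points (exact test, 36 arrangements, p = 0.0556 and adjusted p = 0.0926 for each). These comparisons use the same 16 libraries as those between cell types. They set 1 antibody against another, and the lists hold no common scale for the 2 antibodies.

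The loss of coverage in HSPCs was uneven along the block. The posterior part, Hoxb9 to Hoxb5, had H3K27me3 on 100% of its bases in 4 of 4 HSPC libraries, and H2AK119ub on 89.3% and 75.5% in WT and 90.5% and 96.2% in KO. Further on, the middle part, from Hoxb5 to the end of Hoxb3, had H3K27me3 on 66.8% and 59.9% in WT and 47.8% and 49.9% in KO. By contrast, the anterior part around Hoxb1 and Hoxb2 again had H3K27me3 on 96.7% to 100%, but H2AK119ub on only 38.8% to 53.8%. In HSPCs, H3K27me3 was thus lowest in the middle part, while H2AK119ub was low in both the middle part, at 40.9% to 47.0%, and the anterior part. The CpG content of the posterior, middle and anterior parts was 32.9, 22.6 and 18.7 per kb, against 9.80 per kb over chromosome 11. Its part in the pattern was not tested.

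**Figure D2:**
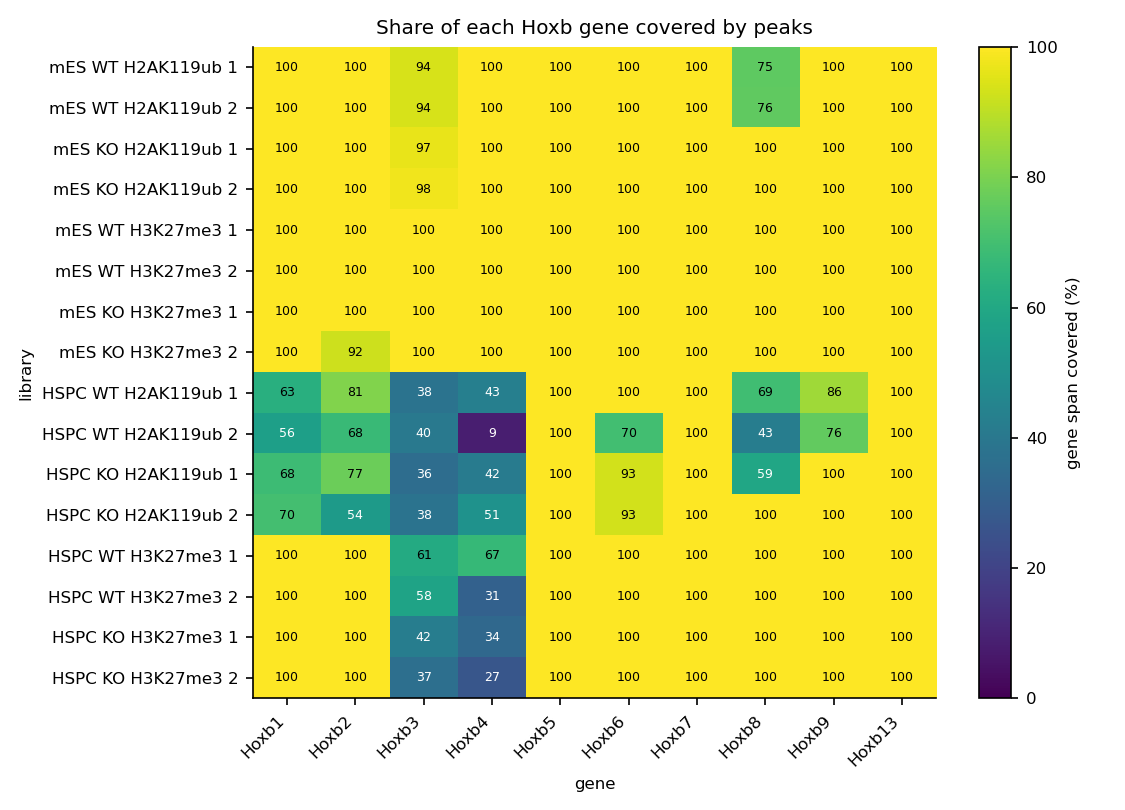
Percent of each gene's span covered by peaks (colour and number) for the 10 Hoxb genes in the 16 mouse libraries. Values below 100% in mES cells are limited to Hoxb3, Hoxb8 and Hoxb2, and the lowest H3K27me3 values in HSPCs are those of Hoxb3 and Hoxb4.

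Of the posterior genes, Hoxb5 and Hoxb7 were 100% covered by both marks in 16 of 16 mouse libraries, as was Hoxb13, a gene of the tail end of the embryo. Hoxb9 was 100% covered in 14 of 16. The exceptions were the HSPC WT H2AK119ub libraries, at 85.6% and 76.2%, and both KO libraries stood at 100%. Hoxb6 was 100% covered by H2AK119ub in 1 HSPC WT library and 69.8% in the other, with 93.3% and 93.0% in KO. Hoxb8 had the widest range of the posterior genes. H2AK119ub covered 75.2% and 75.7% of Hoxb8 in mES WT cells and 100% in both KO libraries, and in HSPCs 69.4% and 42.5% in WT and 59.3% and 100% in KO. H3K27me3 covered all of Hoxb6, Hoxb8 and Hoxb9 in 8 of 8 libraries.

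The middle genes were the ones least covered in HSPCs. Hoxb3 (ENSMUSG00000048763.11) spans 24.6 kb from its most upstream start and patterns the hindbrain. H3K27me3 covered 100% of Hoxb3 in 4 of 4 mES libraries, 61.2% and 58.0% in HSPC WT and 42.3% and 36.7% in HSPC KO. H2AK119ub covered 94.1% and 94.0% of Hoxb3 in mES WT, 96.6% and 97.8% in mES KO, 37.9% and 40.4% in HSPC WT and 35.8% and 37.9% in HSPC KO. No HSPC library reached the lowest mES library with either mark. Hoxb4 (ENSMUSG00000038692.8), known for promoting self-renewal of blood stem cells, was 100% covered in 8 of 8 mES libraries. In HSPCs, H3K27me3 covered 66.8% and 30.9% of Hoxb4 in WT and 33.6% and 26.8% in KO. H2AK119ub covered 43.2% and 8.57% of Hoxb4 in HSPC WT and 41.8% and 50.8% in KO, so the WT libraries differed from each other more than the genotypes did.

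The anterior genes Hoxb1 and Hoxb2, both of which pattern the hindbrain, kept H3K27me3 over 100% of their span in 4 of 4 HSPC libraries. In those cells H2AK119ub covered 63.0% and 56.4% of Hoxb1 in WT and 68.5% and 70.3% in KO. It covered 81.0% and 67.7% of Hoxb2 in WT and 77.4% and 54.4% in KO. In mES cells both genes were 100% covered by both marks, apart from 92.4% of Hoxb2 for H3K27me3 in KO replicate 2. The antisense RNA gene Hoxb3os overlaps all of Hoxb2 and the 3′ part of Hoxb3, and the antisense RNA gene Hoxb5os overlaps posterior genes. They share bases with these genes, and a peak list carries no strand.

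Between cell types, 4 of the 10 genes (Hoxb1 to Hoxb4) were covered less by H2AK119ub in every HSPC library than in every mES library, and 0 were covered more. Across all genes 20.5% were covered less and 20.9% more by the same rule. For H3K27me3, 2 of 10 (Hoxb3 and Hoxb4) were covered less and 0 more, against 17.3% and 27.1% of all genes. The median difference over the 10 genes was -15.4 points for H2AK119ub and 0 for H3K27me3, against 0 and 0.12 over all genes. Between marks, 1 of 10 genes (Hoxb3) in mES cells had less H2AK119ub than H3K27me3 coverage without overlap of the groups, against 7.67% of all genes, and 0 had more, against 38.5%. In HSPCs it was 2 of 10 (Hoxb1 and Hoxb2), against 13.4%, with 0 more, against 40.8%. A gene at 100% cannot rise, which bounds the count of genes with more coverage.

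No difference in block coverage between Tet2 KO and WT passed its test. The sample means were higher in KO for H2AK119ub and lower in KO for H3K27me3. H2AK119ub coverage of the block was 94.4% ± 1.22 in KO and 90.7% ± 0.377 in WT mES cells (mean ± SD, n = 2 each, difference +3.70 points), and 64.1% ± 2.17 and 56.8% ± 5.61 in HSPCs (+7.29 points). H3K27me3 coverage was 97.6% ± 1.77 in KO and 99.5% ± 0.770 in WT mES cells (-1.82 points), and 77.4% ± 0.948 and 84.2% ± 2.12 in HSPCs (-6.73 points). None of these passed, since an exact permutation test of 2 against 2 libraries cannot go below p = 0.333 (adjusted p = 0.351 for each). Averaged over both cell types, the KO-minus-WT difference of the means was +5.49 points for H2AK119ub and -4.28 points for H3K27me3. Both reached the smallest p of their exact test (p = 0.0556, adjusted p = 0.0926), which does not pass. Over both marks the difference was +0.609 points (exact permutation test, p = 0.765, adjusted p = 0.765).

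Gene by gene, H2AK119ub covered 2 of 10 genes (Hoxb3 and Hoxb8) more in both mES KO libraries than in either WT library and 0 less, against 14.8% and 15.4% of all genes. In HSPCs it was 2 of 10 (Hoxb1 and Hoxb9) more and 0 less, against 19.0% and 9.40%. H3K27me3 in mES cells separated 0 of 10 genes in either direction, against 5.37% of all genes covered more and 21.5% covered less. In HSPCs, H3K27me3 covered 1 of 10 (Hoxb3) less in KO and 0 more, against 18.4% and 14.9% of all genes. These shares lie near or below those of all genes. In each mES WT library 8 of the 10 genes were fully covered by H2AK119ub, and all 10 by H3K27me3. Only Hoxb3 and Hoxb8 could thus be covered more by H2AK119ub in mES KO, and none by H3K27me3.

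Within Hoxb3, H3K27me3 coverage in HSPCs averaged 59.6% in WT and 39.5% in KO, a difference of -20.1 points. The longest run of bases without H3K27me3 lay around the start of Hoxb3 and the 3′ part of Hoxb4. Further bases of Hoxb3 outside this run also lacked peaks in all 4 libraries. In HSPC WT the run measured 5.395 kb (39.0 to 44.4 kb) and 8.68 kb, and in KO 10.6 kb and 12.6 kb (34.0 to 46.6 kb), so the KO runs were longer and the groups did not overlap. A core of 5.395 kb lay outside H3K27me3 peaks in 4 of 4 HSPC libraries and held 16.7 CpG per kb, fewer than the block as a whole (25.5 per kb). H3K27me3 peaks covered 164.6 and 167.4 Mb of the genome in HSPC WT and 200.9 and 184.9 Mb in KO, and on chromosome 11 they covered 15.2 and 15.5 Mb in WT and 16.2 and 15.1 Mb in KO. The KO lists were thus longer genome-wide and overlapped with WT on chromosome 11, and their part in the longer run was not tested.

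**Figure D3:**
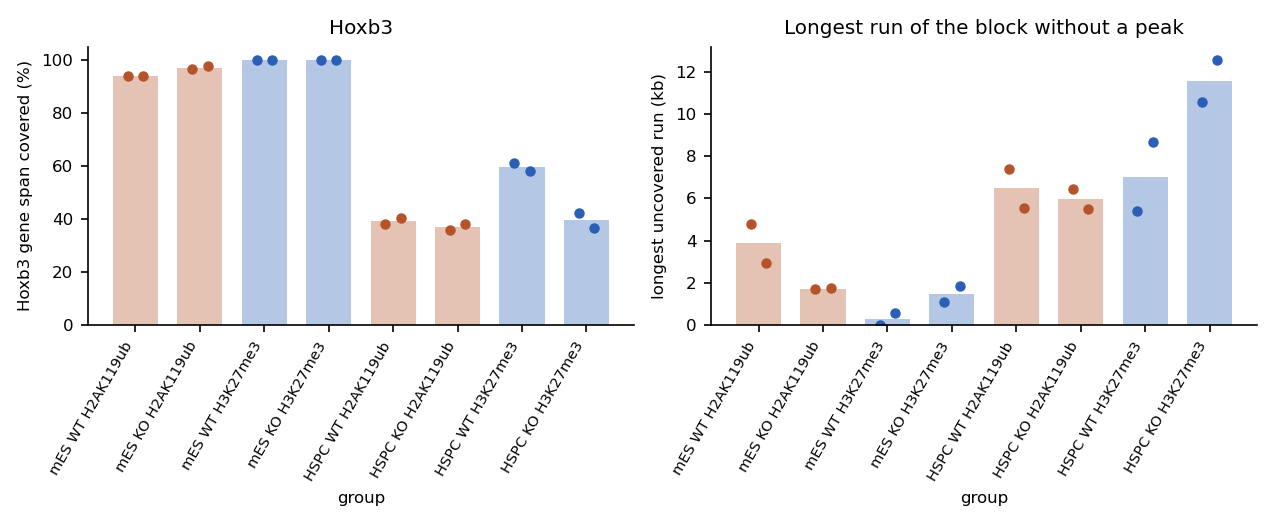
Left, percent of Hoxb3 covered by peaks; right, longest run of the block without a peak in kb; points are the 2 libraries of each group and bars their mean (orange, H2AK119ub; blue, H3K27me3). In HSPC KO, H3K27me3 covers 42.3% and 36.7% of Hoxb3 and leaves runs of 10.6 and 12.6 kb.

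At Mir10a the break was shared by both marks. The hairpin of Mir10a was covered on 0% of its bases in 8 of 8 HSPC libraries, and 861 bases around it (96316553 to 96317413) lay outside every HSPC peak. In mES cells H3K27me3 covered the hairpin fully in 4 of 4 libraries, whereas H2AK119ub covered 34.5% and 100% in WT and 50% and 0% in KO. Across both cell types the start of Mir10a lay outside peaks in 11 of 16 mouse libraries. In these, coverage from the posterior side stopped 599 to 1195 bases short of the start, and the uncovered stretch was 670 to 1814 bases long. The gap held 19.7 CpG per kb. Mir196a-1 was fully covered by both marks in 8 of 8 HSPC libraries. In mES cells H3K27me3 covered it at 100% in both WT libraries and 0% in both KO libraries, and H2AK119ub at 100% in 3 of 4 and 46.1% in KO replicate 2.

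Promoters, taken as 1 kb on each side of the gene start, were touched by peaks in both libraries of a group for 10 of 10 genes in all 4 mES groups. The shares of all promoters were 63.1% and 63.5% for H2AK119ub in WT and KO, and 44.3% and 34.8% for H3K27me3. In HSPCs it was 8 of 10 in WT (60.5% of all promoters) and 9 of 10 in KO (67.6%) for H2AK119ub. The H2AK119ub exceptions were Hoxb3, with 0% and 10.2% promoter coverage in WT and 25.04% and 0% in KO, and Hoxb6 in WT, with 55.8% and 0%. Hoxb2 was touched in all 4 of these libraries but covered on no more than 66.2% of its promoter. For H3K27me3 it was 9 of 10 in both WT (54.0%) and KO (56.5%). The exception for H3K27me3 was Hoxb3, whose annotated start had 0% coverage in 4 of 4 HSPC libraries. That start is the most upstream of several. The start of the principal Hoxb3 transcript (96343769) lies closer to Hoxb1 and had 100% H3K27me3 coverage in both HSPC WT libraries and 61.0% and 54.4% in KO.

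The promoters of Hoxb8, Hoxb4 and Hoxb1 stand for the posterior, middle and anterior genes and were those found among the RefSeq promoters (3 of 10 genes). The 250 bases before each start are printed with CG in capitals (GRCm38.p6, + strand), at chr11:96281655-96281904, chr11:96318017-96318266 and chr11:96365508-96365757.
Hoxb8: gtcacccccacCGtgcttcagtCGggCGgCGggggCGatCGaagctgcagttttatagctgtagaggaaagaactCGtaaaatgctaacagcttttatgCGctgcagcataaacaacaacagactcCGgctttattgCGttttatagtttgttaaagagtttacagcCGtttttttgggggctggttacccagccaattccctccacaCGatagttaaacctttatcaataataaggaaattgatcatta
Hoxb4: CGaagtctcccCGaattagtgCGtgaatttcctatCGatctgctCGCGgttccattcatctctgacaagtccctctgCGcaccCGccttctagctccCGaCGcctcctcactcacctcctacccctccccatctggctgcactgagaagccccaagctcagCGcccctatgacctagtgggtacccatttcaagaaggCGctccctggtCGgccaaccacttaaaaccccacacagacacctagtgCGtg
Hoxb1: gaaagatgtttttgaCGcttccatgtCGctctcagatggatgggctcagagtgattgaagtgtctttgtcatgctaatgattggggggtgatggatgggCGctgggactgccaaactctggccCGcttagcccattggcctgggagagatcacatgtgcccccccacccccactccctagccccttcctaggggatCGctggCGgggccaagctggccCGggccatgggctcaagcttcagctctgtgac
They hold 12, 14 and 7 CG dinucleotides, against a median of 6 over 32851 promoters of the same length, and 66.5%, 70.6% and 53.7% of promoters held fewer. Around Hoxb8, H2AK119ub covered 55.7% and 57.1% of the promoter in mES WT cells and 100% in both KO libraries. In HSPCs H2AK119ub covered 49.9% and 36.9% of it in WT and 61.1% and 100% in KO. Around Hoxb4, the HSPC libraries had H3K27me3 on 59.97% and 86.3% in WT and 74.4% and 84.2% in KO, a larger share than of the gene span in 3 of the 4. H2AK119ub covered 90.4% and 42.6% of the Hoxb4 promoter in HSPC WT and 69.5% and 71.2% in KO. Around Hoxb1, H3K27me3 covered 100% in 8 of 8 libraries and H2AK119ub 74.8% to 100% in HSPCs.

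The spacer between Hoxb9 and Hoxb13 behaved unlike the block. H3K27me3 covered 97.3% and 98.3% of the spacer in HSPC WT and 96.5% and 98.6% in HSPC KO, but only 47.8% and 52.4% in mES WT and 33.6% and 25.2% in mES KO. H2AK119ub covered 48.8% and 41.8% in HSPC WT, 61.2% and 56.3% in HSPC KO, 47.7% and 47.7% in mES WT and 44.1% and 40.0% in mES KO. Over both marks and genotypes the means were 74.8% in HSPCs and 42.3% in mES cells, a difference of +32.5 points and of the opposite sign to that of the block (exact permutation test, p = 0.00617, adjusted p = 0.0412; with the replicate block, adjusted p = 0.156). Without any 1 of 4 libraries (mES KO H2AK119ub replicates 1 and 2, HSPC WT H2AK119ub replicate 1, HSPC KO H2AK119ub replicate 1) it was 33.0, 32.0, 31.6 and 31.9 points in this order, and the adjusted p of the exact test was 0.0617 to 0.0720. The difference was +57.9 points for H3K27me3 (exact test, p = 0.0556, adjusted p = 0.0926) and +7.10 points for H2AK119ub (exact test, p = 0.222, adjusted p = 0.342).

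Between marks, the spacer had 52.0% H2AK119ub and 97.7% H3K27me3 coverage in HSPCs, a difference of -45.7 points (exact permutation test, p = 0.0556, adjusted p = 0.0926). In mES cells the means were 44.9% and 39.8% (+5.15 points, exact permutation test, p = 0.333, adjusted p = 0.351). Over both cell types the marks differed by -20.3 points (exact permutation test, p = 0.0478, adjusted p = 0.0926), which does not pass. The longest H3K27me3 peaks that touched the spacer in HSPCs measured 92.2 and 102.5 kb in WT and 103.6 and 104.1 kb in KO. The longest stretch of the spacer without a peak was 0.730 to 1.06 kb for H3K27me3 in HSPCs and 9.12 to 25.7 kb in mES cells. The spacer holds 14.8 CpG per kb.

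**Figure D4:**
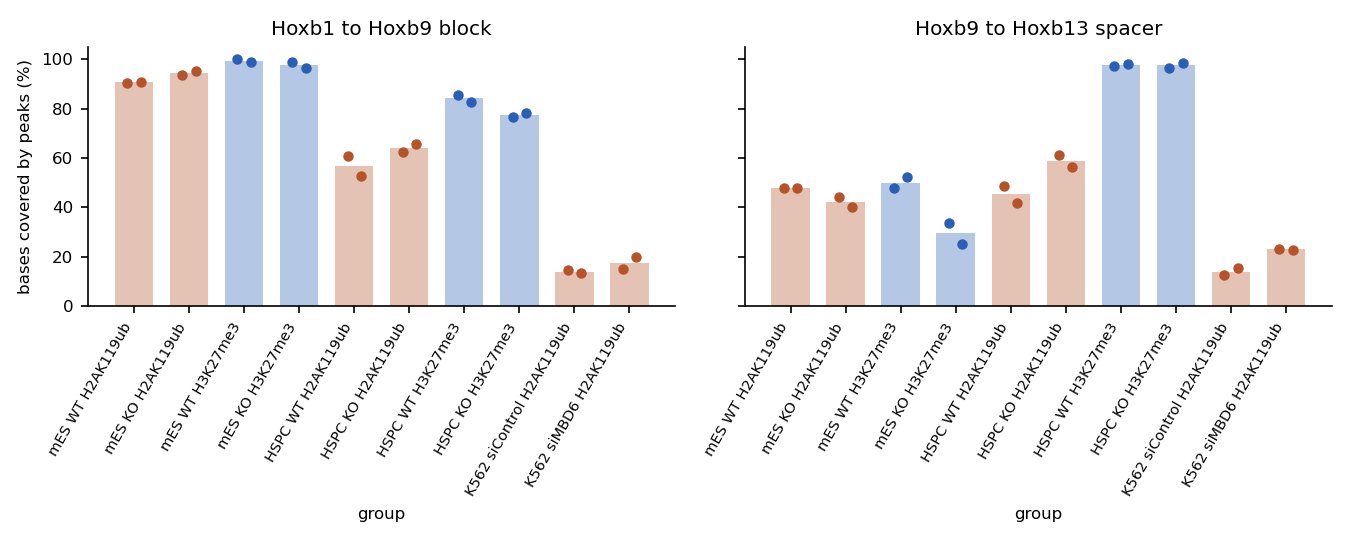
Percent of bases covered by peaks in the Hoxb1 to Hoxb9 block (left) and the Hoxb9 to Hoxb13 spacer (right) for the 10 groups; points are the 2 libraries, bars their mean (orange, H2AK119ub; blue, H3K27me3). HSPC H3K27me3 is below mES in the block and, at 96.5% to 98.6%, above it in the spacer.

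Beyond Hoxb13, Ttll6, a tubulin glutamylase gene and the nearest protein-coding neighbour on that side, was 100% covered by H3K27me3 in 4 of 4 HSPC libraries. In mES cells H3K27me3 covered 26.2% and 35.7% of Ttll6 in WT and 14.9% and 4.48% in KO. H2AK119ub covered 34.5% to 48.9% of it in HSPCs and 32.2% to 57.7% in mES cells. On the Hoxb1 side, H3K27me3 covered 48.0% and 51.0% of Skap1, an adaptor gene of T cells, in HSPC WT and 33.1% and 31.9% in KO. In mES cells it covered 13.2% to 22.2% of Skap1.

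Joining peaks across gaps of up to 5 kb gives a continuous domain with a beginning and an end. In 8 of 8 mES libraries the domain held 100% of the block. It began beyond Hoxb1, at -119.4 to -9.78 kb, and ended in the spacer between 104.3 and 139.1 kb, short of Hoxb13. In HSPCs the domain holding most of the block held 48.7% to 55.3% of the block. For H3K27me3 it began inside Hoxb4, at 44.4, 46.4, 46.4 and 46.6 kb. For H2AK119ub it began between 40.8 kb, inside Hoxb3, and 47.2 kb, inside Hoxb4. For H3K27me3 it ran past Hoxb13 to 290.6 to 301.3 kb. For H2AK119ub it ended at 117.2 and 121.6 kb in WT, within the spacer, and at 250.7 and 281.2 kb in KO, beyond Hoxb13. The ends depended on the gap allowed. At 10 kb the HSPC domain held 100% of the block in all 4 H2AK119ub and both WT H3K27me3 libraries, but 49.5% and 49.3% in the KO H3K27me3 libraries. At 2 kb the H2AK119ub domain in HSPC KO ended at 122.5 and 117.3 kb, inside the spacer.

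Bases were also sorted by which marks both libraries of a group shared. In mES WT cells, 88.7% of the block lay under both marks in all 4 libraries, 6.13% under H3K27me3 alone and 0% under H2AK119ub alone. In mES KO cells 91.9% lay under both. In HSPC WT 39.4% lay under both, 15.3% under H3K27me3 alone and 8.74% under neither, and in HSPC KO 51.4%, 7.84% and 12.3%. Bases with H2AK119ub lay under H3K27me3 at 100% in mES WT, 98.7% in mES KO, 96.5% in HSPC WT and 94.6% in HSPC KO. In the spacer this share was 100% in both HSPC groups, 89.8% in mES WT and 57.7% in mES KO. H3K27me3 covered nearly all of the mES block and of the HSPC spacer. There, shares near 100% follow from that coverage, wherever H2AK119ub lies.

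In K562 cells HOXB genes had few H2AK119ub peaks. In hg38 the human block is 105.05 kb of chromosome 17 (48528526 to 48633572) and the spacer 98.4 kb (48626359 to 48724762), which overlap by 7.21 kb because the annotated HOXB7 spans HOXB8 and HOXB9. H2AK119ub covered 14.4% and 13.6% of the block with siControl and 15.0% and 19.7% with siMBD6. The means were 14.0% ± 0.613 and 17.3% ± 3.32 (SD, n = 2 each, difference +3.33 points, exact permutation test, p = 0.333, adjusted p = 0.351). In the spacer coverage was 12.4% and 15.3% with siControl and 23.2% and 22.7% with siMBD6. Peaks covered 132.2 and 132.1 Mb of the genome with siControl and 177.5 and 190.2 Mb with siMBD6, and the part of this in the cluster's values was not tested. The longest peaks in the block were only 1.87 to 2.43 kb, and stretches of 18.5 to 28.0 kb had none. Joined over gaps of up to 5 kb, the domain holding most of the block was 17.04 to 28.2 kb long.

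The genes with the most coverage were those at the outer ends. H2AK119ub covered 75.3% and 76.1% of HOXB1 with siControl and 66.7% and 75.6% with siMBD6, and 89.1% and 100% of HOXB13 with siControl and 100% and 98.3% with siMBD6. Of HOXB4 it covered 0% in 4 of 4 libraries. HOXB2 went from 0% in both siControl libraries to 11.9% in both siMBD6 libraries. HOXB3 went from 14.9% and 12.5% to 18.2% and 22.1%, and HOXB6 from 6.90% and 23.7% to 27.1% and 33.0%. By the rule of groups that do not overlap, these 3 of 10 genes had more coverage with siMBD6 and 0 had less, against 34.6% and 1.28% of all genes, a share near the background. Promoters with a peak in both libraries were 3 of 10 with siControl (HOXB1, HOXB9 and HOXB13; 27.2% of all promoters) and 3 of 10 with siMBD6 (HOXB1, HOXB4 and HOXB13; 35.7%). Around the start of the principal HOXB3 transcript, coverage was 45.9% and 43.0% with siControl and 63.6% and 95.7% with siMBD6. Around that of HOXB7 it was 25.04% and 11.1% with siControl and 0% and 10.9% with siMBD6. HOXB9 had 41.8% and 38.0% promoter coverage with siControl and 0% with siMBD6. MIR10A and MIR196A1 had no peak in 4 of 4 libraries.

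**Figure D5:**
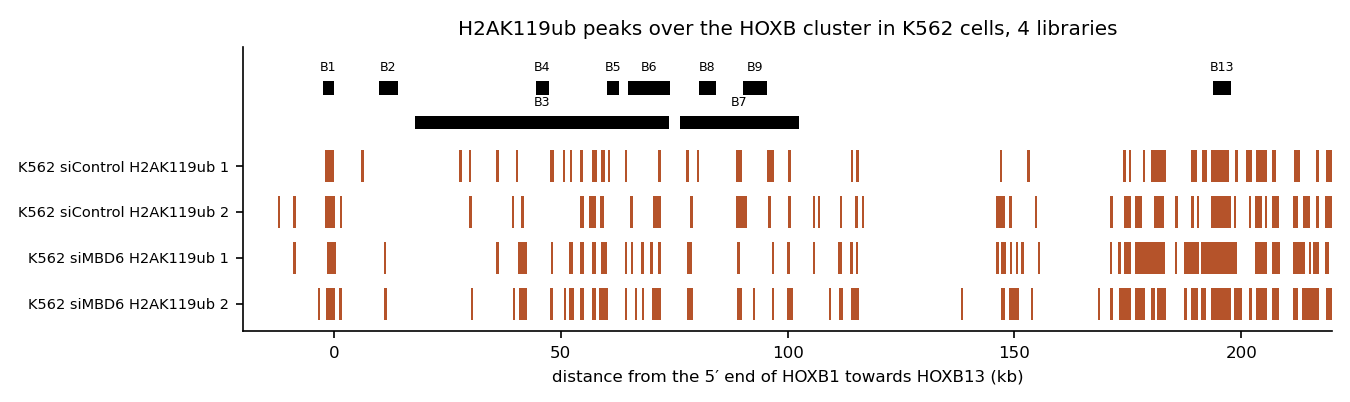
H2AK119ub peaks (orange) in the 4 K562 libraries against the distance in kb from the 5′ end of HOXB1 towards HOXB13; black boxes are the genes. Peaks in the block are short, at most 2.43 kb, and HOXB13 is 89.1% to 100% covered.

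The other Hox clusters give a scale for these values. Taken whole, from Hoxb1 to Hoxb13, H3K27me3 covered 85.6% to 90.9% of Hoxb in HSPCs, against 71.1% to 74.4% of Hoxa, 100% of Hoxc and 99.5% to 100% of Hoxd. In mES cells the ranges were 66.2% to 79.1% for Hoxb, 92.1% to 97.3% for Hoxa, 87.3% to 96.8% for Hoxc and 94.9% to 98.2% for Hoxd. The Hoxb block without the spacer had 96.4% to 100% in the same mES libraries. H2AK119ub covered 86.6% to 89.9% of Hoxa in mES libraries but 58.9% to 65.5% in HSPC libraries, so lower coverage in HSPCs was not limited to the Hoxb block. It also covered more of Hoxa, Hoxc and Hoxd in every KO library than in the WT libraries of the same cell type, with 74.4% and 69.1% of Hoxc in HSPC WT and 86.6% and 83.3% in KO. In K562 cells H2AK119ub covered 14.3% and 15.9% of HOXB with siControl in the 2 libraries, against 30.1% to 44.2% of the others. With siMBD6 the values were 20.7% to 22.5% and 48.5% to 58.1%.

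Outside the Hox clusters, the genes whose covered share over the 16 mouse libraries came closest to that of the block were Cacna1g, Kbtbd11, Duox2, Tbx4 and Kcng4. Their mean absolute differences from it were 5.34, 5.66, 5.70, 5.79 and 5.84 points among 20312 genes compared. Of 18 genes for Hox cofactors and upstream regulators, the same rule of groups that do not overlap gave 0 covered more and 7 less by H3K27me3 in mES KO against WT (5.37% and 21.5% of all genes), and 4 more and 4 less in HSPCs (14.9% and 18.4%). For H2AK119ub it gave 2 more and 2 less in mES cells (14.8% and 15.4% of all genes) and 6 more and 4 less in HSPCs (19.0% and 9.40%). Between cell types, H3K27me3 covered 6 of the 18 more in HSPCs, among them the cofactors Pbx3 and Meis2, and 2 less, Pbx4 and Meis1, against 27.1% and 17.3% of all genes.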

How the data were processed

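The deposited files were peak lists from 20 CUT&Tag libraries. Before deposit the authors used Trimmomatic 0.39 for trimming, Bowtie2 2.4.1 for alignment to mm10 or hg38 and Picard to remove duplicates. The methods name MACS2 in broad mode as the peak caller, and the submitters' processing notes also name HOMER 4.9. The files give peak positions alone, without scores or counts, so depth is unknown and the spike-in is not carried. The smallest gap between peaks was 499 bp in every list and 30.4% to 41.4% of peaks in a list shared 1 short width, which limits how finely borders are placed.

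Genes came from GENCODE mouse M21 and human 44. The percent of bases under peaks was computed per library with Python 3.11.15, numpy 2.4.6 and pandas 2.3.3, and plotted with matplotlib 3.10.9. Interval arithmetic was checked on simulated data and against bedtools. Two-sided exact permutation tests compared group means with libraries permuted within strata, Benjamini-Hochberg adjusted over 20 tests at 0.05. Genes were called covered more or less where the groups did not overlap. Named genes were the 10 members, genes inside or next to the cluster, 18 Hox cofactors and regulators, cell type markers and the 5 genes most like the block. The members and lists were chosen with earlier results of these data known. The parts of the block, the longest uncovered run, the Mir10a edge, the marks shared by base and the tests of differences between effects were added after the data were seen. Alternatives were peaks of at least 1 kb, peaks joined over 1 kb, equal list lengths, leaving out each library and a replicate block. A further one widened the block and narrowed the spacer by 5 kb at each end.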

Additional observations from a re-analysis of the deposited data

Results flagged for a closer look

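The KO-minus-WT difference of the block was compared between the marks in tests added after the data were seen (12 tests). Over both cell types it was +5.49 points for H2AK119ub and -4.28 points for H3K27me3, which differ by 9.77 points (exact permutation test, p = 0.00154, adjusted p = 0.0185). This smallest possible p follows from the separation of KO and WT libraries in each mark and cell type. That separation was seen before the test was added, so the test is no separate support for it. In mES cells the difference between the marks' effects was 5.52 points (+3.70 against -1.82), and in HSPCs 14.0 points (+7.29 against -6.73). In both cell types the groups of each mark did not overlap and moved in opposite directions, although the nearest H3K27me3 values of mES WT and KO both round to 98.9%, and neither difference passed alone (exact permutation test, 36 arrangements, p = 0.0556, adjusted p = 0.133).

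In the spacer the KO-minus-WT difference over both marks was +6.56 points in HSPCs and -13.1 points in mES cells. These differ by 19.7 points (exact permutation test, p = 0.00617, adjusted p = 0.0370). This test was likewise added after the data were seen. It permutes KO and WT libraries, so a KO difference confined to mES cells could also give a small p. It thus does not show that the KO-minus-WT difference depends on cell type. For H2AK119ub alone the KO-minus-WT difference was +13.4 points in HSPCs and -5.63 points in mES cells. These differ by 19.0 points, which did not pass (exact permutation test, 36 arrangements, p = 0.0556, adjusted p = 0.133). For H3K27me3 alone it was -0.280 points in HSPCs and -20.6 points in mES cells. These differ by 20.4 points, which did not pass (exact permutation test, 36 arrangements, p = 0.222, adjusted p = 0.333). H3K27me3 peaks covered 149.4 Mb of the genome in mES KO replicate 2, less than the 188.9 to 232.5 Mb of the other mES H3K27me3 libraries, and the part of list length in the spacer values was not tested.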

How the results depend on the processing

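All 20 tests kept their direction and their side of the threshold with lists cut to equal length. They also did so with the block widened and the spacer narrowed by 5 kb at each end. Exact permutation tests with 6 or 36 arrangements cannot go below p = 0.333 or 0.0556. Their side of the threshold was thus fixed in advance, and for them the counts given here reflect direction alone. With peaks of at least 1 kb the spacer difference between HSPCs and mES cells was 33.4 points and no longer passed (exact permutation test, adjusted p = 0.0617), and the other 19 results were kept. With peaks joined over 1 kb the KO-minus-WT difference of the block over both marks turned to -0.165 points, and 19 were kept. Leaving out each library in turn kept 175 of 180 values. The spacer difference ranged from 31.5 to 33.6 points and lost its call in 4 cases, and the KO-minus-WT difference of the block ranged from -0.383 to 1.6007 points, negative only without HSPC WT H2AK119ub replicate 2. KO-minus-WT differences of the block that did not pass moved widely: 3.32 to 11.3 points for HSPC H2AK119ub, -3.07 to -0.570 for mES H3K27me3 and 3.51 to 7.48 for H2AK119ub over both cell types. The K562 difference ranged from 0.982 to 5.68 points. The cause of these changes was not tested.

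Over genes, deviations of libraries with the same replicate number had r between -0.245, in mES H3K27me3, and 0.0387 over the 5 comparisons. With 2 libraries per group these values cannot exclude a pairing by number. Pairing across marks was not tested. With the replicate block the block difference between HSPCs and mES cells (-24.9 points) and that between the marks (-13.2 points) had an adjusted p of 0.0781, and the spacer difference (32.5 points) had 0.156, so none of the 3 calls passed. Under the replicate block these tests have fewer arrangements, and both differences of the Hoxb1 to Hoxb9 block stood at the smallest p that remained. Their lost calls thus do not show weaker differences. The 17 other results were kept. Crossing the numbers in mES H3K27me3 gave 0 calls.

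Domain ends moved in most groups when the gap allowed was 10 kb, and promoter counts moved for K562 with a window of 2 kb (6 and 8 of 10). With the start of the principal transcript the count moved in 1 group, K562 siControl. With at least 50% of the promoter covered, the count was 5 in HSPC WT H2AK119ub and 0 in K562 siControl. Unknown depth limits every comparison of covered length.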
